A study of Sus scrofa with 8 samples.

Results

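The DNA repair gene families of the pig heart were followed here by name. The members are all rows of the deposited gene table whose symbol begins with FANC, XRCC, BRCA1 or BRCA2, RAD, ERCC, PARP, MSH or MLH with a digit, or LIG1, LIG3 or LIG4. The rule found 67 members of 31014 genes, and no measured value entered it. Heart tissue of wild-type miniature pigs was sequenced in 3 samples given vehicle and 5 given doxorubicin, an anthracycline that poisons topoisomerase II and breaks DNA. Both groups share genotype and tissue, and the sources used here give no dose, schedule, age, sex or strain. Whether each sample is a different animal is not stated either, and the p-values therefore cover only the spread between these samples, which may be technical.

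Cells mend DNA by several routes. Nucleotide excision repair cuts out bulky lesions, base excision repair replaces single damaged bases and seals nicks, and mismatch repair corrects copying errors. Broken ends are either joined directly (non-homologous end joining) or copied from the sister chromatid (homologous recombination), the latter mainly in dividing cells. The Fanconi anaemia proteins open crosslinks between strands and pass the break to recombination. A ring of RAD9, RAD1 and HUS1 loads at damaged DNA and helps start the checkpoint. Adult heart muscle cells rarely divide.

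Levels are counts-per-million values (CPM) scaled by TMM (trimmed mean of M-values), written as mean ± SD with n = 3 for vehicle and n = 5 for doxorubicin. Libraries held 16105242 to 18267178 counts, and every library contained cardiomyocyte markers (summed level of 11 genes at least 41939 CPM). Doxorubicin 5 resembled the rest of its group least (mean correlation 0.912, and 0.941 to 0.956 for doxorubicin 1 to 4). A member passed where edgeR's quasi-likelihood test gave a Benjamini-Hochberg adjusted p under 0.05 over all 14938 genes tested. "Rose" and "fell" are used for members that passed.

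Of the 67 members, 61 had enough reads to be tested, 2 had no read in any library (RAD21L1 and RAD51AP2) and 4 had too few. Those with too few were RAD54B and XRCC2 of recombination, MSH4 of meiosis and FANCD2OS, which lies next to FANCD2 on the opposite strand. For the unread pair, 0 reads allow up to 0.0215 CPM over the 8 libraries together (3 reads, counting error only).

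Most repair genes did not pass the test after doxorubicin. Among the 61 tested members 2 rose, RAD9A and PARP10, and 9 fell. The falling members were RAD21, MSH3, ERCC6L2, RAD17, RAD1, RAD52, ERCC8, RAD9B and ERCC4. They belong to recombination, end joining, mismatch repair, nucleotide excision repair, the checkpoint clamp and cohesin. The share that passed was 18.03% of tested members, against 24.9% of all genes tested. The share that rose was 3.28%, against 13.6% of all genes, and the share that fell was 14.8%, against 11.3%. The median log2 fold change was −0.13 over the members and 0.02 over all genes. Both groups of libraries were separate, without overlap in CPM, for 21 members (34.4%, against 34.9% of all genes). Of the 11 members that passed, 3 changed at least 2-fold, and of all genes that passed 50.8% did. In bulk tissue, fewer cells of a type and less RNA per cell cannot be told apart.

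The split between directions moved with the scaling. With library size in place of TMM, 9 members were higher and 2 lower, where 27.4% of all genes were higher and 3.34% lower and the median of all genes was 0.378. RAD21 and RAD9B were the lower members under that scaling. The calls also leaned on the vehicle libraries. Without vehicle 1, vehicle 2 or vehicle 3 there were 0, 2 and 0 members higher and 1, 4 and 2 lower. The shares of all genes called dropped too, to 2.16%, 7.14% and 2.19% higher and 2.04%, 5.57% and 2.42% lower. Of the 50 members that did not pass, 21 passed in at least 1 of 20 other settings. The like count over all genes was not made. With limma voom alone, 1 of these settings, 27.1% of all genes were higher and 27.0% lower. RAD21 was the only member called that passed whichever library was left out (adjusted p at most 0.0492).

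**Figure D1:**
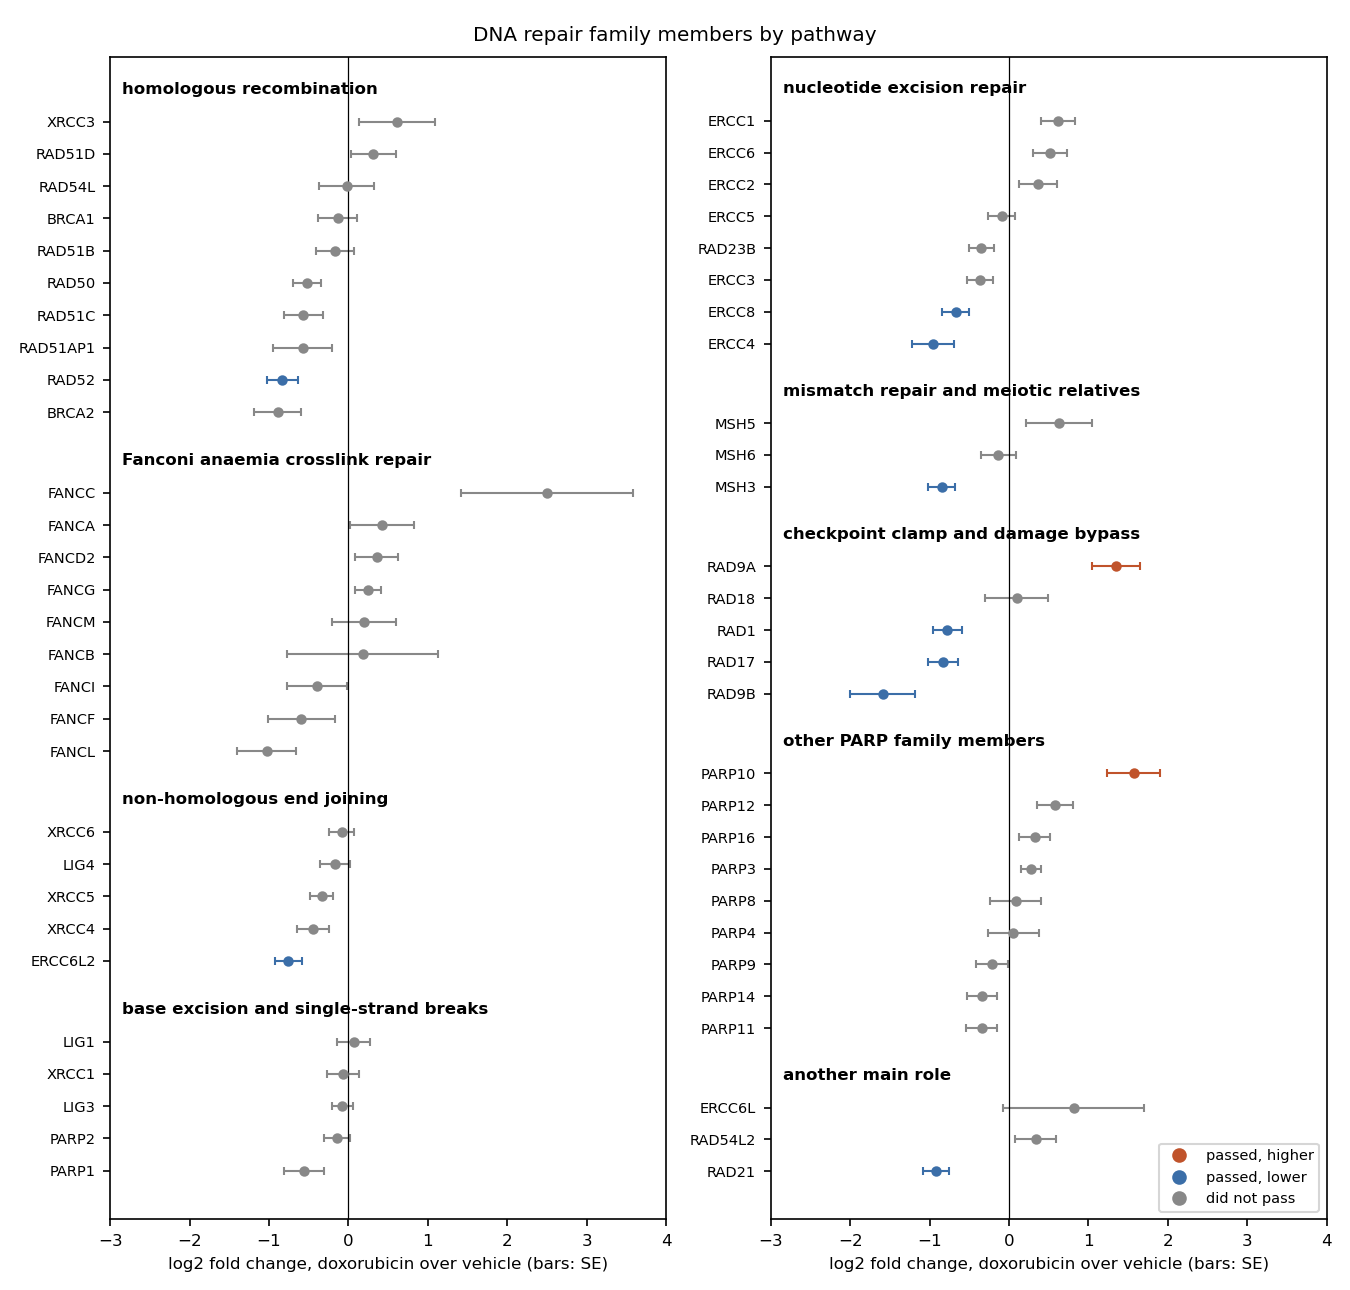
Log2 fold change of 57 tested members, doxorubicin over vehicle, with bars of 1 SE, grouped by repair route. The 2 members that rose and the 9 that fell are coloured, and the grey members did not pass the test.

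Levels in the vehicle heart spanned a wide range, here given per kilobase of gene length so that genes can be compared. RAD21, the ring-closing subunit of cohesin that holds sister chromatids and chromatin loops, was highest at 66.0 ± 6.33 CPM per kb. RAD23B, which stabilises the lesion sensor XPC, came next at 43.4 ± 2.02 on the same scale. PARP1, which senses strand breaks and makes poly(ADP-ribose), stood at 24.0 ± 2.29 CPM per kb. XRCC6 (13.3 ± 1.61) and ERCC4 (11.8 ± 0.269) followed, and these neighbours in the order lay within 1 SD of XRCC6. XRCC5, ERCC3 and PARP2, at 9.87 ± 0.701, 9.83 ± 0.423 and 9.67 ± 1.14 CPM per kb, could not be ranked against each other.

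The recombination and Fanconi genes spread widely on the same scale. RAD50, which tethers broken ends, had 6.80 ± 0.635 CPM per kb and FANCG, a core complex subunit, 3.43 ± 0.226. BRCA1 (0.803 ± 0.0741) and BRCA2 (0.539 ± 0.0989) were each below 1 CPM per kb in vehicle. FANCC was read 0, 0 and 4 times in the vehicle libraries.

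**Figure D2:**
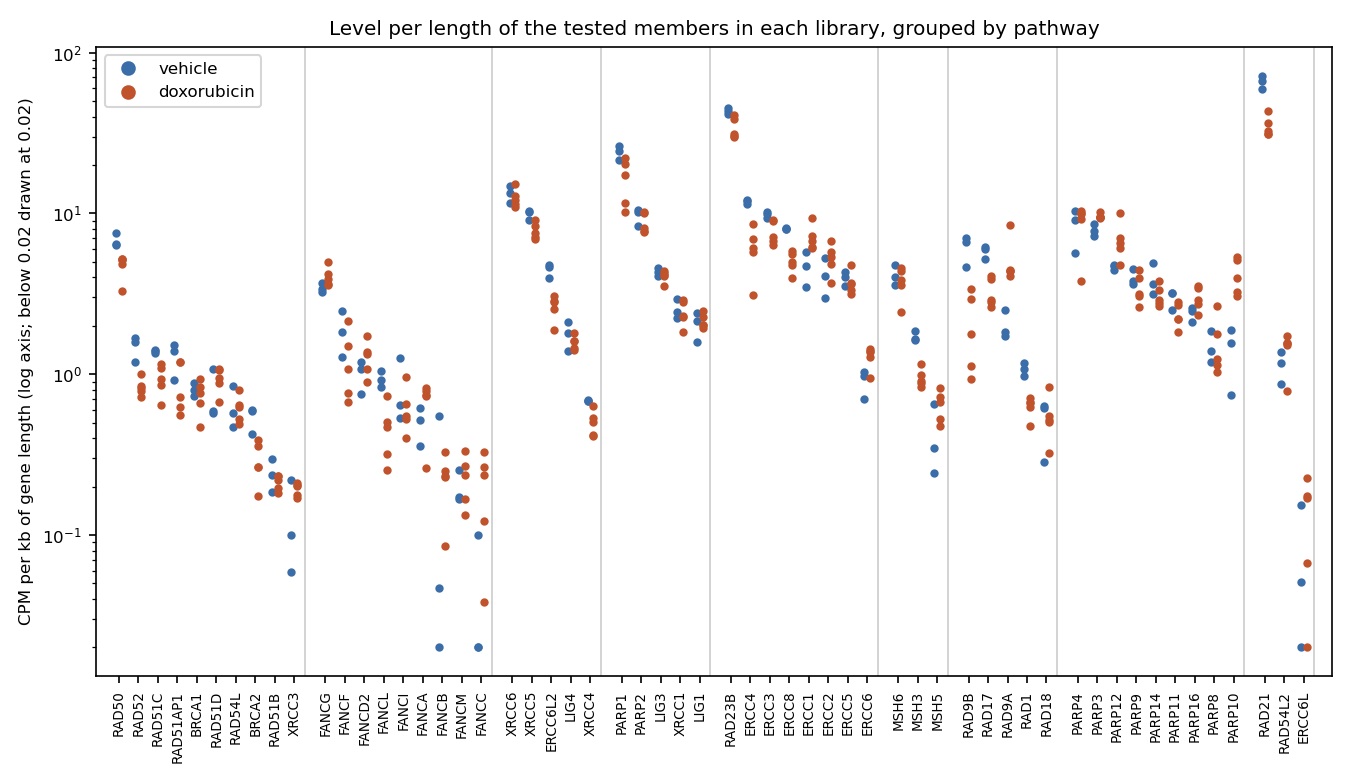
CPM per kb of gene length on a log axis for 57 tested members, with 1 point for each library, grouped by repair route in the order of the fold change plot. RAD21 and RAD23B are the highest, and FANCC and ERCC6L are among the lowest.

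The checkpoint clamp and its loader held 4 of the 11 members that passed, and they went opposite ways. RAD9A rose 2.55-fold, while RAD9B, RAD1 and RAD17 fell. RAD9A (chromosome 2, 5123142 to 5129740, assembly Sscrofa11.1) encodes a clamp subunit. It had 3.79, 5.48 and 3.98 CPM in vehicle and 9.55, 9.75, 8.97, 9.54 and 18.5 CPM in doxorubicin 1 to 5. All doxorubicin libraries lay above all vehicle libraries, and doxorubicin 5 lay far above its group. Its log2 fold change was 1.35 (SE 0.30, adjusted p = 0.0147), and 1.10 without doxorubicin 5 (adjusted p = 0.00491).

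RAD9B (chromosome 14, 31869570 to 31903485), the paralog of RAD9A, had 14.8, 13.9 and 9.67 CPM in vehicle and 6.11, 3.74, 2.33, 7.11 and 1.95 CPM after doxorubicin. Groups did not overlap, and doxorubicin 3 and 5 were lowest (log2 fold change −1.59, SE 0.41, adjusted p = 0.0225). RAD1 (chromosome 16, 20491851 to 20512198), the clamp subunit that pairs with either RAD9, went from 14.4, 13.2 and 11.9 CPM to 8.08, 8.69, 5.84, 8.25 and 7.65 CPM. Its change was −0.78 (SE 0.18, adjusted p = 0.0169), with all doxorubicin libraries below all vehicle libraries. RAD17 (chromosome 16, 47499669 to 47529703), which loads the clamp, had 18.8, 19.4 and 16.1 CPM in vehicle. After doxorubicin it had 12.7, 8.18, 12.1, 9.08 and 8.75 CPM (−0.83, SE 0.19, adjusted p = 0.0167). HUS1, the remaining clamp subunit, was looked up after the values were seen and did not pass (9.44 ± 2.56 and 9.09 ± 3.13 CPM, log2 fold change −0.05). RAD18, the ubiquitin ligase that starts damage bypass at PCNA, did not pass either (2.13 ± 0.822 and 2.27 ± 0.755 CPM).

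None of these 4 passed without vehicle 1 (adjusted p 0.0710 to 0.0949) or vehicle 3 (0.0577 to 0.0706), and without vehicle 2 only RAD9A did (0.0334). With library size only, RAD1 and RAD17 did not pass (0.0886 and 0.103), and RAD9A and RAD9B did. RAD9A shares 27 bases of its span with PPP1CA and RAD9B 45 bases with VPS29, both on the opposite strand, and whether counting used the strand is not given in the sources used here. PPP1CA rose and VPS29 fell in the same test.

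Listed genes of damage signalling and bypass, which are not members, had 1 of 23 higher, 6 lower and a median log2 fold change of −0.42. RHNO1, which binds the clamp, rose from 1.91 ± 0.577 to 7.88 ± 1.79 CPM. UBE2B, the ubiquitin-conjugating partner of RAD18, fell from 243 ± 8.53 to 118 ± 14.5 CPM, and HLTF, a bypass helicase, from 93.5 ± 11.9 to 54.4 ± 5.99 CPM. POLI, a bypass polymerase, fell from 12.4 ± 1.60 to 7.48 ± 0.785 CPM.

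**Figure D3:**
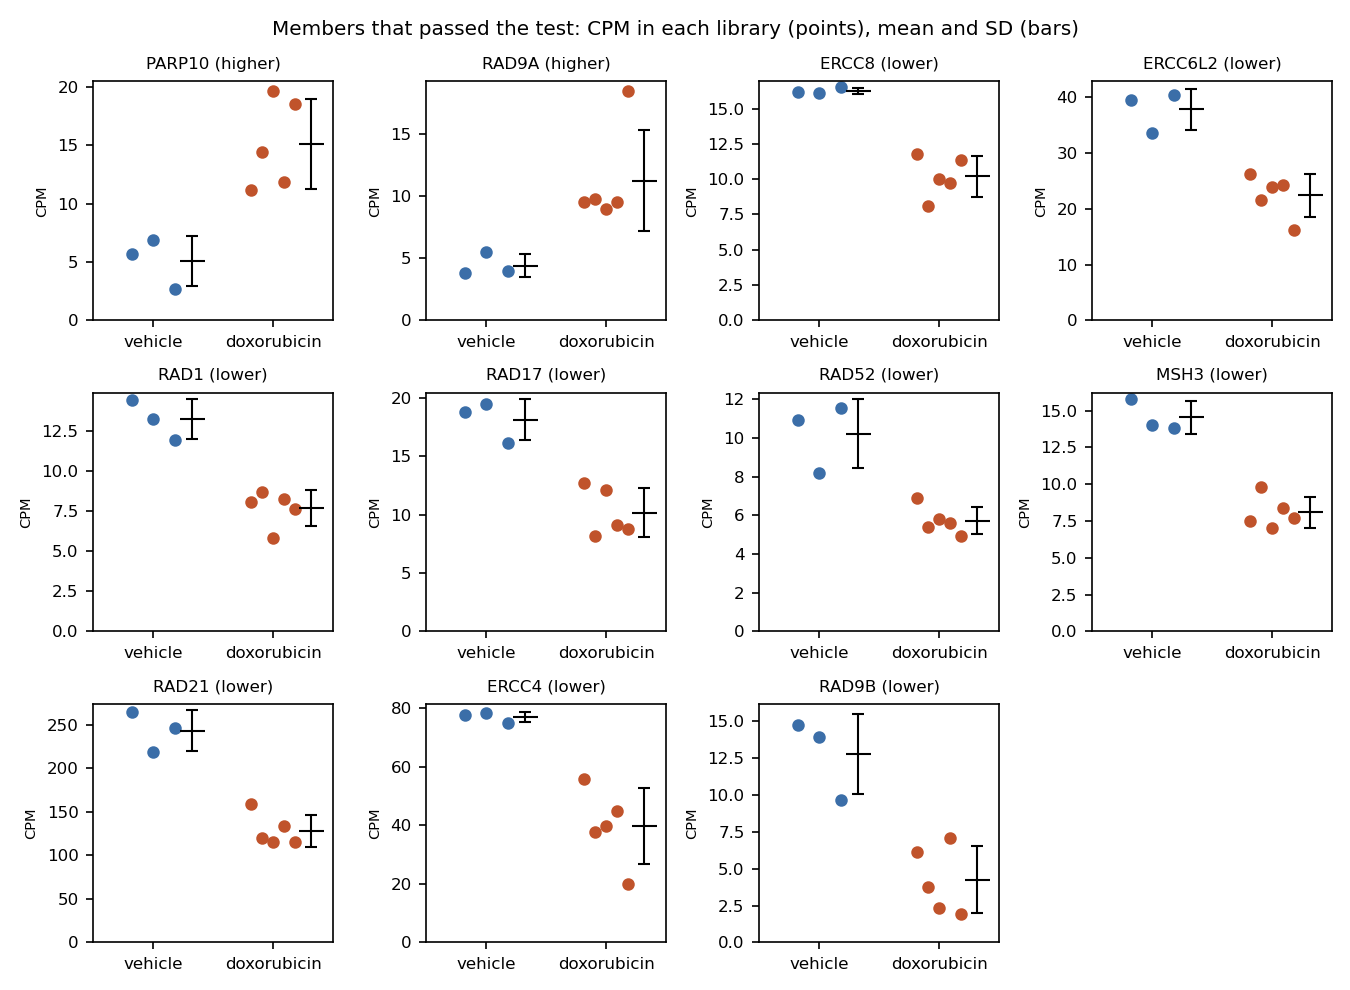
CPM in each library for the 11 members that passed, each panel from 0, with the mean and SD beside the points of vehicle (n = 3) and doxorubicin (n = 5). Groups do not overlap in any panel, and doxorubicin 5 lies apart in the RAD9A panel.

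Nucleotide excision repair had 9 tested members, of which 0 rose and 2 fell, with a median log2 fold change of −0.09. Another 3 had an unadjusted p under 0.05 without passing. Over all members 23 of 61 had such a p, passing or not, and over all genes 6095 of 14938. ERCC4 (chromosome 3, 29266234 to 29306109), the nuclease subunit of the enzyme that cuts 5′ of a lesion and at crosslinks, fell. It had 77.4, 78.2 and 74.9 CPM in vehicle and 55.9, 37.6, 39.7, 44.9 and 20.1 CPM after doxorubicin. Vehicle libraries lay close together and every doxorubicin library lay below them, doxorubicin 5 lowest (log2 fold change −0.95, SE 0.26, adjusted p = 0.0290). ERCC1, the partner without which ERCC4 does not cut, had 9.79, 16.1 and 13.2 CPM in vehicle and 19.0, 17.4, 17.1, 20.2 and 26.2 CPM after doxorubicin. Its groups did not overlap either, but it did not pass (log2 fold change 0.62, SE 0.21, adjusted p = 0.0585). ERCC1 passed as higher by DESeq2 and limma voom, and with library size only. With each library's trend with local gene density removed, its log2 fold change was 0.22 (adjusted p = 0.403). It shares 160 bases of its span with CD3EAP on the opposite strand, which rose.

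ERCC8 (chromosome 16, 39704602 to 39770330), the ligase subunit CSA that acts where RNA polymerase stalls, fell. Its values were 16.1, 16.1 and 16.5 CPM in vehicle and 11.8, 8.08, 10.04, 9.70 and 11.4 CPM after doxorubicin (−0.67, SE 0.17, adjusted p = 0.0201). ERCC6 (CSB), which acts with it at stalled polymerase, did not pass and had a positive value (7.64 ± 1.47 and 10.9 ± 1.66 CPM, log2 fold change 0.51, adjusted p = 0.0976). ERCC6 and ERCC2 passed as higher with library size only and with limma voom. Once the density trend was removed, their log2 fold changes were 0.56 (ERCC6) and −0.04 (ERCC2). The TFIIH helicases ERCC2 and ERCC3 had log2 fold changes of 0.37 and −0.36, and neither passed. ERCC5, the nuclease that cuts 3′ of a lesion, and RAD23B had −0.09 and −0.35, and neither passed. ERCC4 and ERCC8 did not pass without vehicle 1 (0.0983 and 0.0733), vehicle 2 (0.0810 and 0.0545) or vehicle 3 (0.0901 and 0.0803), and ERCC4 also not without doxorubicin 2 (0.0592) or doxorubicin 3 (0.0562). Neither passed with library size only (0.101 and 0.185) or after each library's trend with local gene density was removed (0.0589 and 0.0776).

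Of 18 other listed nucleotide excision genes, 1 rose, 2 fell and the median was −0.24. XPC, the lesion sensor and a known p53 target, rose from 16.9 ± 0.545 to 38.1 ± 9.88 CPM (log2 fold change 1.17, SE 0.23, adjusted p = 0.0102). CCNH, the cyclin of the TFIIH kinase, fell from 87.0 ± 12.3 to 46.0 ± 2.78 CPM, and CETN2, which binds XPC, from 54.5 ± 11.3 to 38.5 ± 3.84 CPM.

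Mismatch repair had 5 tested members, of which 0 rose and 1 fell (median −0.23). MSH3 (chromosome 2, 89255647 to 89456102), which recognises longer loops, had 15.8, 14.01 and 13.8 CPM in vehicle and 7.48, 9.80, 7.05, 8.40 and 7.70 CPM after doxorubicin. Groups were well apart, and the log2 fold change was −0.84 (SE 0.17, adjusted p = 0.0113). MSH3 did not pass without vehicle 1 (0.0580) or with library size only (0.0524). MSH6, which recognises single mismatches (17.7 ± 2.61 and 16.1 ± 3.64 CPM), and MSH5, a meiotic relative (1.18 ± 0.604 and 1.83 ± 0.394 CPM), did not pass.

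Among 9 other listed mismatch repair genes 1 rose and 3 fell, and the related genes PMS2 and PMS1 went opposite ways. PMS2 rose from 3.58 ± 0.728 to 7.28 ± 1.99 CPM, and PMS1 fell from 47.8 ± 4.33 to 20.6 ± 2.71 CPM. RFC5 (16.3 ± 2.69 to 10.8 ± 0.367 CPM) and RFC3 (11.2 ± 0.469 to 7.73 ± 0.612 CPM), subunits of the PCNA loader, fell too.

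Homologous recombination had 11 tested members, of which 0 rose, 1 fell and 10 did not pass, with a median of −0.17. RAD52 (chromosome 5, 68140846 to 68223587), an annealing factor, had 10.9, 8.18 and 11.5 CPM in vehicle and 6.88, 5.41, 5.79, 5.60 and 4.95 CPM after doxorubicin. All doxorubicin libraries lay below vehicle (log2 fold change −0.83, SE 0.20, adjusted p = 0.0174). RAD52 did not pass without vehicle 1 (0.0760) or vehicle 3 (0.0844), or with library size only (0.0993). Its span shares 1688 bases with WNK1 on the opposite strand, a gene with 24859 reads in all against 997 for RAD52, and WNK1 did not pass.

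BRCA2, a mediator of strand exchange, had 6.64, 6.52 and 4.69 CPM in vehicle and 3.93, 2.93, 2.94, 1.92 and 4.30 CPM after doxorubicin. Groups did not overlap, and the adjusted p lay just above the threshold (−0.89, SE 0.30, adjusted p = 0.0517). By DESeq2 and limma voom it passed as lower, as it did without doxorubicin 1 or doxorubicin 5. RAD50 had 33.6, 28.5 and 29.0 CPM in vehicle and 23.0, 23.3, 21.7, 14.8 and 23.1 CPM after doxorubicin, also without overlap (−0.52, SE 0.18, adjusted p = 0.0553). It passed as lower without doxorubicin 5, with limma voom and after the density trend was removed. The RAD50 span shares 3116 bases with SLC22A5 on the same strand and 6850 with KIF3A on the opposite strand. These had 2147 and 1796 reads in all against 3385 for RAD50, and neither passed.

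BRCA1, a ubiquitin ligase that steers breaks to recombination, had 8.001, 6.66 and 7.25 CPM in vehicle and 6.06, 7.58, 6.91, 8.46 and 4.25 CPM after doxorubicin. Its groups overlapped (−0.13, SE 0.24, adjusted p = 0.707). The BRCA1 span shares 928 bases with NBR1 on the opposite strand, which had 21223 reads in all against 967 for BRCA1. The paralogs RAD51B, RAD51C, RAD51D and XRCC3 had log2 fold changes of −0.17, −0.57, 0.31 and 0.61, and the motor protein RAD54L and the accessory factor RAD51AP1 had −0.02 and −0.58. None of these passed. Of 32 other tested recombination genes 0 rose and 4 fell (median −0.12). NBN, which joins RAD50 at breaks, fell from 33.6 ± 1.91 to 17.3 ± 4.86 CPM, the helicase BLM from 7.24 ± 0.971 to 3.42 ± 0.855 CPM, and BRCC3, a deubiquitinase of the BRCA1-A complex, from 24.8 ± 2.33 to 16.1 ± 2.31 CPM.

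No Fanconi anaemia member passed. Of 9 tested, 2 had an unadjusted p under 0.05, against 6095 of 14938 among all genes. DESeq2 called 1 lower (FANCL), and limma voom called 2 higher (FANCA and FANCB) and 2 lower (FANCF and FANCL). FANCL, the ubiquitin ligase of the core complex, had 3.50, 3.95 and 3.13 CPM in vehicle and 2.78, 0.960, 1.91, 1.76 and 1.20 CPM after doxorubicin (−1.03, SE 0.37, adjusted p = 0.0654). Its groups did not overlap. The FANCL span shares 1699 bases with VRK2 on the opposite strand, which had 1363 reads in all against 319 for FANCL and did not pass. FANCD2, which FANCL marks with ubiquitin, had 5.57, 3.88 and 6.12 CPM in vehicle and 7.15, 4.60, 6.91, 5.60 and 8.90 CPM after doxorubicin (0.35, SE 0.27, adjusted p = 0.350). The groups overlapped. FANCI, its partner, had 3.87 ± 1.86 and 2.94 ± 1.001 CPM. FANCA, FANCG and FANCM had log2 fold changes of 0.43, 0.24 and 0.20 and FANCF −0.59, and FANCM turned negative with limma voom. FANCB had 2, 24 and 0 reads in vehicle, and its log2 fold change of 0.18 ranged from −0.40 to 3.14 when 1 library was left out. FANCC had 0 to 4 reads in vehicle and 2 to 20 after doxorubicin (adjusted p = 0.113).

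Of 12 other listed crosslink repair genes tested, 3 rose and 2 fell (median 0.58). The related nucleases DCLRE1A and DCLRE1B went opposite ways. DCLRE1A (SNM1A) fell from 71.4 ± 7.42 to 31.7 ± 4.93 CPM, and DCLRE1B (Apollo, which also trims telomeres) rose from 2.56 ± 0.507 to 7.99 ± 2.59 CPM. FAAP100 rose from 5.96 ± 1.38 to 11.3 ± 1.73 CPM and CENPX from 6.69 ± 1.94 to 12.3 ± 3.64 CPM, both subunits that accompany the core complex. WDR48, which activates the deubiquitinase of FANCD2, fell from 51.6 ± 4.40 to 38.4 ± 2.81 CPM.

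Markers of dividing cells were measured beside the recombination and Fanconi genes, which dividing cells use most. Of 18 such markers 10 rose and 0 fell, among them TYMS, MCM2 and MKI67, and their summed level was 58.9 to 72.3 CPM in vehicle and 83.6 to 193 CPM after doxorubicin, highest in doxorubicin 5. RAD9A was also highest in doxorubicin 5, as were 31.1% of members and 33.1% of all genes. In doxorubicin 1 to 4 the marker sum was 83.6, 108, 115 and 146 CPM. RAD9A had 9.55, 9.75, 8.97 and 9.54 CPM there. The part of dividing cells in any value here was not tested.

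Non-homologous end joining had 5 tested members, all with negative log2 fold changes (median −0.34), of which 1 fell and 4 did not pass. With library size only, XRCC6 (0.28), LIG4 (0.19) and XRCC5 (0.023) turned positive, while XRCC4 (−0.10) and ERCC6L2 (−0.40) stayed negative. XRCC6 also turned positive without vehicle 2. ERCC6L2 (chromosome 10, 26112019 to 26264759), a helicase-like protein linked to end joining, had 39.5, 33.6 and 40.3 CPM in vehicle and 26.1, 21.5, 23.9, 24.2 and 16.1 CPM after doxorubicin. Groups did not overlap (−0.76, SE 0.17, adjusted p = 0.0159). It did not pass without vehicle 1 (0.0707) or vehicle 3 (0.0740), or with library size only (0.111). The Ku subunits XRCC5 and XRCC6, which cap broken ends, did not pass. XRCC5 had 24.6, 27.9 and 28.02 CPM in vehicle and 20.6, 19.4, 22.7, 18.8 and 24.8 CPM after doxorubicin. Doxorubicin 5 reached the vehicle range and the other 4 lay below it (−0.34, SE 0.14, adjusted p = 0.110). XRCC6 had 31.2 ± 3.79 and 29.4 ± 3.99 CPM (−0.08). LIG4, the ligase of this route, had 12.2, 10.4 and 8.03 CPM in vehicle and 8.13, 9.25, 9.29, 8.35 and 10.4 CPM after doxorubicin. All of its doxorubicin values lay within the vehicle range (−0.17, SE 0.19, adjusted p = 0.529). XRCC4, the scaffold of LIG4, did not pass either (8.40 ± 0.0527 and 6.15 ± 1.10 CPM, −0.45, adjusted p = 0.122). Of 11 other tested end joining genes, 2 rose and 1 fell. The gap-filling polymerase POLM rose from 2.45 ± 0.102 to 8.50 ± 2.81 CPM, and APLF, a binder of poly(ADP-ribose), fell from 42.8 ± 0.245 to 29.5 ± 5.89 CPM.

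In base excision and single-strand break repair none of the 5 members passed. Of the 5, 0 had an unadjusted p under 0.05, against 6095 of 14938 among all genes. DESeq2 called 0 of them and limma voom 1 as lower (PARP1). PARP2 passed as lower once the density trend was removed (log2 fold change −0.63, adjusted p = 0.0337). PARP1 had 80.5, 91.1 and 97.4 CPM in vehicle and 75.4, 64.7, 43.5, 82.7 and 38.2 CPM after doxorubicin. Doxorubicin 4 overlapped vehicle, while doxorubicin 3 and 5 were lowest (−0.56, SE 0.25, adjusted p = 0.128). PARP2, LIG3, the scaffold XRCC1 and the replicative ligase LIG1 had log2 fold changes of −0.14, −0.08, −0.07 and 0.07 with SE of 0.13 to 0.21, each within 1 SE of 0. XRCC1 had 10.4, 9.64 and 12.7 CPM in vehicle and 12.4, 9.90, 9.81, 12.1 and 7.85 CPM after doxorubicin, with only doxorubicin 5 below the vehicle range (adjusted p = 0.828). LIG1 had 4.93, 6.66 and 7.47 CPM in vehicle and 7.64, 6.31, 6.02, 6.28 and 7.05 CPM after doxorubicin, and the groups overlapped (adjusted p = 0.829). Around them, 4 of 22 listed genes rose and 2 fell. POLE, a replicative polymerase, rose from 0.141 ± 0.0685 to 1.91 ± 0.742 CPM, from only 2, 3 and 1 reads in the vehicle libraries. The glycosylases SMUG1 (5.55 ± 0.499 to 9.50 ± 1.37 CPM) and MPG (7.39 ± 2.37 to 14.2 ± 2.73 CPM) rose too. PARG, which removes poly(ADP-ribose), fell from 21.5 ± 1.08 to 14.5 ± 0.566 CPM, and the gap-filling polymerase POLB from 60.6 ± 9.11 to 41.2 ± 6.54 CPM.

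The remaining PARP family, enzymes that mostly attach single ADP-ribose units and in part answer interferon, had 1 of 9 members higher and 0 lower (median 0.08). PARP10 (chromosome 4, 688511 to 695808), a mono-ADP-ribosyltransferase, had 5.72, 6.87 and 2.70 CPM in vehicle and 11.2, 14.4, 19.6, 11.8 and 18.6 CPM after doxorubicin. Every doxorubicin library lay above vehicle, a 2.96-fold rise (SE of log2 0.33, adjusted p = 0.0125). It did not pass without vehicle 1 (0.0560) or vehicle 3 (0.0505). PARP12 (19.8 ± 0.729 and 29.6 ± 8.27 CPM, adjusted p = 0.0821) and PARP3 (36.1 ± 3.14 and 43.8 ± 1.60 CPM, adjusted p = 0.119) had groups without overlap but did not pass. PARP12 passed as higher with library size only, with limma voom, after the density trend was removed and without doxorubicin 1, and PARP3 with library size only. PARP16, PARP8 and PARP4 had log2 fold changes of 0.32, 0.08 and 0.06, and PARP9, PARP14 and PARP11 had −0.21, −0.34 and −0.34.

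RAD21 (chromosome 4, 21772821 to 21802453) fell, with the smallest p of the 61 tested members. It had 265, 219 and 246 CPM in vehicle and 159, 119, 115, 134 and 115 CPM after doxorubicin, far apart (−0.92, SE 0.17, adjusted p = 0.00831). It also passed with library size only (−0.57, adjusted p = 0.0227). RAD54L2, a chromatin remodeller, and ERCC6L, a mitotic translocase, did not pass (log2 fold changes 0.33 and 0.81). ERCC6L had 1 to 19 reads a library, and its value ranged from 0.34 to 1.89 when 1 library was left out. RAD54L2 passed as higher with limma voom and without doxorubicin 5.

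Partners and paralogs were then compared within each library as a log2 ratio of reads (pseudocount 0.5), which does not depend on scaling between libraries. The 20 pairs were chosen from known complexes and paralogs with the counts in view. For 6 of them the groups did not overlap (4 are named here). Each had an exact two-sided permutation p of 0.0357, taken by doubling the one-tailed p. With this doubling it is the smallest that 3 against 5 libraries allow. The adjusted p was 0.119 over the 20, so none passed. With this doubling none could pass unless most pairs reached that smallest p. How many pairs of other genes lack overlap was not counted. The shifts without overlap named below recombine genes already described above and are not separate support for them. The RAD9A to RAD9B ratio went from −1.52 ± 0.376 to 1.52 ± 1.13 on the log2 scale, an 8.25-fold shift, and RAD9A to RAD1 from −1.59 ± 0.326 to 0.50 ± 0.467. The ratio of ERCC1 to ERCC4 went from −2.59 ± 0.357 to −0.93 ± 0.753, a 3.16-fold shift. ERCC6 to ERCC8 went from −1.10 ± 0.285 to 0.10 ± 0.418. LIG3 to XRCC1 (1.44 ± 0.280 and 1.44 ± 0.238) and PARP9 to DTX3L had differences within 1 SD of either group.

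**Figure D4:**
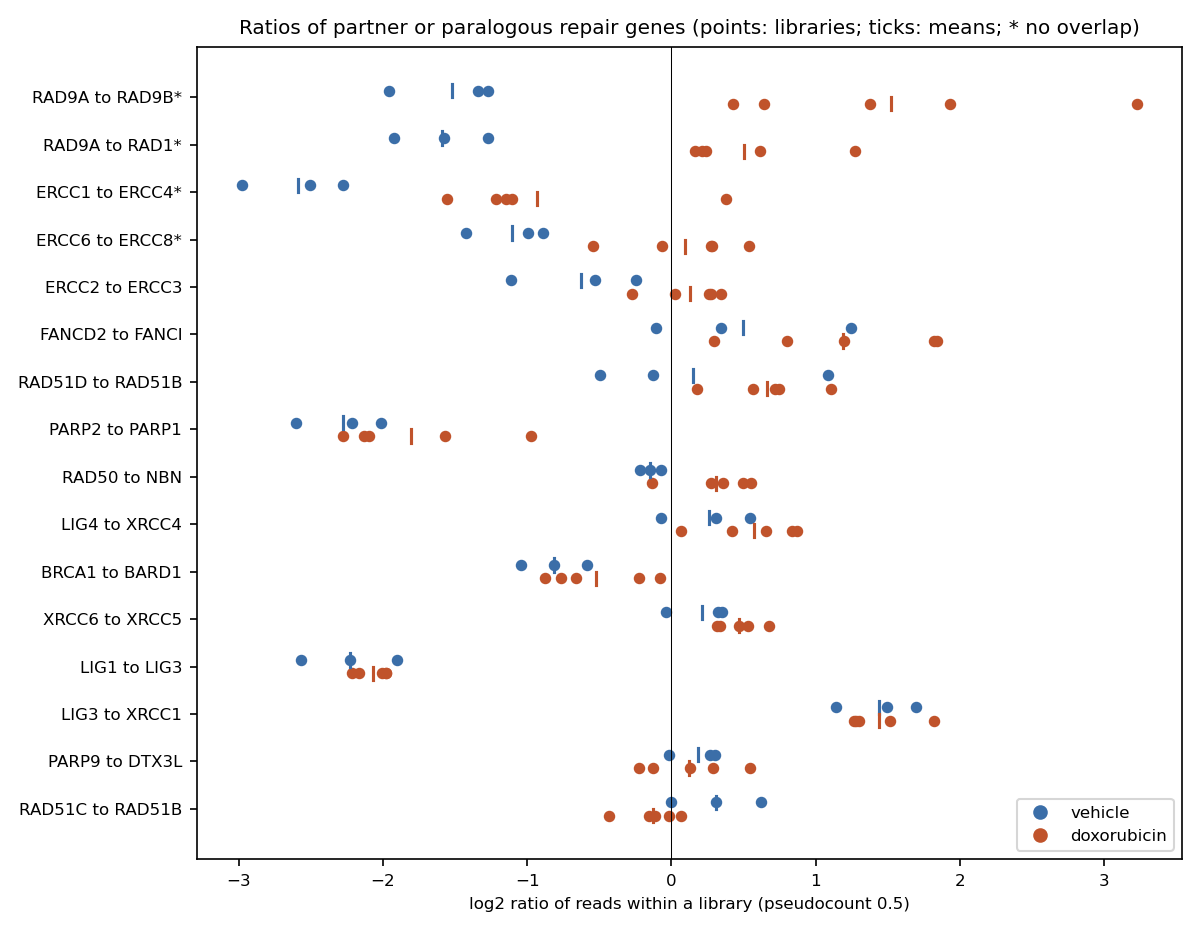
Log2 ratio of the reads of 16 gene pairs within each library, with 1 point for each library and a tick at each group mean. Pairs marked with a star have no overlap between vehicle (n = 3) and doxorubicin (n = 5), and the RAD9A to RAD9B pair shows the widest shift of the means.

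The members that left the vehicle range were counted in each doxorubicin library. Above all 3 vehicle libraries lay 12, 14, 14, 14 and 17 of the 61 members in doxorubicin 1 to 5, and below them 29, 26, 28, 24 and 30. As shares these were 19.7% to 27.9% above and 39.3% to 49.2% below, where all genes had 35.5% to 40.1% above and 33.9% to 42.5% below. Doxorubicin 5 had the highest or lowest value of its group for 31.1% and 21.3% of members, against 33.1% and 33.2% of all genes.

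The gene density around the members that passed was counted. Within 500 kb the 2 that rose had 60 (PARP10) and 42 (RAD9A) protein-coding genes, and the 9 that fell had 3 to 18, with a median of 7. All genes that rose had a median of 23 and all that fell a median of 9. The 50 members that did not pass had 2 to 74 (median 15), and all genes tested had a median of 13. With each library's density trend removed, 3 members were higher and 9 lower, of which both higher and 7 of the lower calls were shared. Of all genes 10.4% were then higher and 8.80% lower.

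Marker lists of other cells moved beside these values. Of 11 tested macrophage markers 6 rose (summed level 153 to 207 CPM in vehicle, 259 to 810 CPM after doxorubicin). Of 11 T and NK cell markers 5 rose (11.6 to 15.6 against 27.7 to 54.3 CPM), and of 10 fibroblast markers 6 rose and 1 fell (1298 to 1517 against 2586 to 31564 CPM). Of 11 cardiomyocyte markers 2 fell and 0 rose (70198 to 77882 against 41939 to 72606 CPM). Endothelial markers had 1 of 8 lower (1284 to 1707 against 511 to 1590 CPM), and smooth muscle and pericyte markers 2 of 7 higher and 1 lower (514 to 1167 against 593 to 4351 CPM). Of the B and plasma cell list and of the erythroid list 2 markers each could be tested, and 0 passed. PAX5, of the B cell list, had 0 reads in vehicle. The part of cell composition in the repair gene values was not tested.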

How the data were processed

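RNA of 8 heart samples was sequenced after column purification and a SMARTER mRNA kit, per the labels' protocols. The authors deposited whole-number raw counts per gene with unequal library totals. Aligner, counter and strand use: not given in the sources used here. Columns were matched to samples by title. All 67 members had the same start and end in a RefSeq table of Sscrofa11.1. Gene lengths are those in the deposited table.

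The deposited counts went into edgeR 4.0.16 (R 4.3.3) with filterByExpr (minimum count 10, total 15), TMM scaling and a two-sided robust quasi-likelihood F test of treatment, no covariate. Each SE is the log2 fold change divided by the root of F. Fits were tested on simulated counts. Alternatives used RLE, library size only, TMM without abundant genes, other filters, DESeq2 1.42.0, limma 3.58.1 voom, a 1.5-fold minimum, a replicate block, removal of trends with gene density (500 kb, lowess span 0.3) and gene length, and each library left out.

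Members, routes and lists were chosen with earlier results of these data known. Values per library were planned for the 8 members that passed with the smallest p in each direction and 14 further members fixed by name, and 3 genes a direction for each list of other genes. Values per library of FANCL and the counts of HUS1 were added after their values were seen. Results of some genes and gene pairs are not reported here, though all counts over members, pairs and lists include them, except the 57 members drawn or checked for outlying libraries. Figures used matplotlib 3.10.9.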

Additional observations from a re-analysis of the deposited data

Results flagged for a closer look

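In 6 of 57 tested members 1 doxorubicin library lay far from the other 4, by Dixon's gap criterion. Chance meets it in about 1 of 20 groups, and the share of all genes that meet it was not counted. Of the 6 members, 4 were in doxorubicin 5, which was the highest of its group for 33.1% of all genes and the lowest for 33.2%. It was the highest for RAD9A (18.5 CPM, others 8.97 to 9.75). It was the lowest for PARP4 (17.4 CPM, others 42.0 to 47.6), RAD54L2 (9.55 CPM, others 18.5 to 20.96) and FANCA (1.25 CPM, others 3.55 to 3.94). Doxorubicin 4 was the lowest for RAD50 (14.8 CPM, others 21.7 to 23.3), and doxorubicin 1 the highest for PARP3 (46.7 CPM, others 42.6 to 43.5).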

How the results depend on the processing

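The counts of 2 members higher and 9 lower stayed within 1.5-fold under RLE, TMM without abundant genes, the other filters, DESeq2 (3 and 11), the replicate block (2 and 9; 2 and 10 for the same 6 libraries without it) and both trend removals. They moved to 9 and 2 with library size only and to 10 and 18 with limma voom, where 27.1% and 27.0% of all genes passed. With a 1.5-fold minimum (glmTreat) they were 0 and 0, with 2 and 6 at an unadjusted p under 0.05, where 2.32% and 0.951% of all genes passed. Leaving out each library gave 0 to 3 higher and 1 to 12 lower, where 2.16% to 16.8% of all genes were higher and 2.04% to 15.4% lower. Same-numbered libraries did not deviate together more than others (correlations 0.0425, 0.00205 and −0.00312, and −0.12 to 0.13 for differently numbered ones). With so few libraries a pairing by number was neither shown nor excluded. No member that passed changed sign. Changes of sign were not counted over all genes, whose median log2 fold change was 0.378 with library size only. Among members that did not pass, signs turned for 17 with library size only, 10 with limma voom and 8 without the density trend. Of the members fixed by name, with library size only these included XRCC5 (0.023), XRCC1 (0.28), LIG4 (0.19) and BRCA1 (0.22). With limma voom they included LIG4 (0.028), BRCA1 (0.019), FANCD2 (−0.10) and LIG1 (−0.12), and without the density trend LIG4 (0.062) and LIG1 (−0.36). Leaving out libraries gave −0.15 to 0.0499 for XRCC1 and −0.087 to 0.20 for LIG1. The log2 ratio differences then spanned −0.16 to 0.12 (LIG3 to XRCC1), −0.00497 to 0.33 (LIG1 to LIG3) and −0.17 to 0.0255 (PARP9 to DTX3L). With the doubled one-tailed permutation p no pair could then pass, since the smallest is 0.0571 or 0.0952. The cause was not tested, apart from fewer libraries. Few reads limit FANCB, FANCC and XRCC3.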
